A study of Homo sapiens with 18 samples.

Results

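The genes described here encode proteins of the small (40S) ribosomal subunit. They were chosen by symbol from a written list of 28 genes, without pseudogenes and without the copy RPS27L. All 28 were found among the 15358 genes listed for MCF10A and the 15257 listed for hTERT RPE-1. MCF10A is an established line of near-normal breast epithelial cells, and hTERT RPE-1 is an established line of retinal pigment epithelial cells made to divide by telomerase. In each line, 3 libraries came from cells given siNT, a non-targeting siRNA that served as the negative control, 3 from cells given a mimic of hsa-miR-28-5p (miR-28) and 3 from cells given a mimic of hsa-miR-708-5p (miR-708). A mimic is a synthetic RNA duplex that raises the amount of 1 microRNA in the cell. All were given at 30 nM for 72 h to unmodified cells of the line, and the 18 libraries were made from polyadenylated RNA in biological triplicate. The labels number the MCF10A replicates 7, 8 and 9 and those of hTERT RPE-1 1, 2 and 3. A line is 1 cell population, so the replicates measure the spread within that line. The comparisons ask how the transcript of each small subunit protein differs between a mimic and siNT, and where RPS28 lies against the rest of its subunit.

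The small subunit binds the messenger RNA and reads its codons. Its proteins sit on the 18S ribosomal RNA in a head with a beak and in a body with a platform, and most are needed for the subunit to mature at all, since cells that lack 1 of them stall in cutting the precursor RNA. Transcripts of ribosomal proteins are short and abundant and commonly begin with a C in a run of pyrimidines, the terminal oligopyrimidine tract, through which growth signals set their translation and stability together. A microRNA pairs through its seed, near its 5′ end, with sites that are mostly in 3′ untranslated regions (UTRs) and so lowers the transcripts that carry them.

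The mimics belong to the MIR-28 family and share their seed. The mature sequence of hsa-miR-708-5p from RefSeq (GRCh38.p14, chr11:79402077-79402099, minus strand) is shown with the seed, bases 2 to 8, in capitals, because the sites in the members were searched with it.
hsa-miR-708-5p: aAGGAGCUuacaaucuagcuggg
The letters searched, on the transcript strand only, were GCTCCT, the complement of bases 2 to 7, and AGCTCCT, which extends it by a base. In the reference transcripts of the 28 members (1 MANE Select transcript per gene, GENCODE 44, hg38), RPS28 alone had GCTCCT in its 3′ UTR, at 2 places in exon 4 on the plus strand, and RPS25 alone had AGCTCCT, in its coding sequence in exon 3 on the minus strand. These sites are printed with the GCTCCT in capitals. They were chosen after the results were seen, as the members that carry them had the lowest fold changes. Their part in those changes was not tested.
RPS28, 3′ UTR, chr19:8322327-8322332: tcacagtctGCTCCTtttttttgt
RPS28, 3′ UTR, chr19:8322362-8322367: aactgagatGCTCCTttaaataaa
RPS25, coding sequence, chr11:119017370-119017375: ccttcaggaGCTCCTtagtaaagg
A match is only a description of the letters. GCTCCT stood in the 3′ UTR of 3.57% of the members and of 35.7% of the genes tested in MCF10A that had a reference transcript (87.1% of those tested), and the median 3′ UTR was 81 nt long in the members and 1352 nt in the genes tested. In the coding sequence it stood in 17.9% of the members, which were RPSA, RPS4X, RPS13, RPS25 and FAU, and in 45.8% of the genes tested. The mean log2 fold changes of these members over the 4 comparisons with siNT were -0.70, -0.97, -1.20, -1.69 and -0.48. The share of all genes with AGCTCCT in the coding sequence is not given here. RPS20 had GCTCCT, without the added base, in its 5′ UTR.

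All members passed the filter on low values in both lines, in which 14726 and 14527 genes were tested. Libraries held an estimated 19.4–31.7 M reads on genes (MCF10A) or 23.8–40.4 M (hTERT RPE-1), and the value of 3 reads was at most 4.40, far below the lowest value of any member. Ribosomal RNA made up 15.1% of the values in replicate 1 of miR-28 in hTERT RPE-1 and 4.23–7.20% in the other 8 libraries of that line, so results of that group are also given without this library. Of 8 markers of basal breast epithelium, all were listed in MCF10A, and TP63, LAMB3 and DSP but not KRT5, KRT14, KRT17, KRT6A and CDH1 were listed in hTERT RPE-1. Of 8 markers of pigment epithelium, OTX2, MITF, BEST1, RLBP1 and PMEL were listed in hTERT RPE-1 and RPE65, TYR and TTR were not, while MITF, BEST1, PMEL and RPE65 were also listed in MCF10A. Some markers were lower in every library with a mimic than in every siNT library, and others were higher in every one. In MCF10A KRT14 had values of 32508–42198 with siNT, 10013–12599 with miR-28 and 5602–9341 with miR-708, and TP63 had 2950–3554, 1286–2059 and 1057–1816. In hTERT RPE-1 MITF had 1757–2031, 1070–1134 and 1248–1316, and the mesenchymal gene COL1A1 had 22655–67366, 5438–17209 and 1505–5120. Both went the other way in MCF10A, where MITF had 146.8–210.7, 336.5–364.05 and 246.9–358.2 and COL1A1 had 89.5–106.5, 196.1–297.6 and 160.8–239.3. Markers that were higher with both mimics in hTERT RPE-1 included LAMB3, with 218.65–294.9, 370.45–716.7 and 941.6–1121.5. BEST1 had 153.2–181.5, 206.1–248.75 and 188.3–219.1 there, and RLBP1 was likewise higher, at low values. Their part in the members' results was not tested. RefSeq holds between 4 and 74 pseudogenes for each member, 656 in all, of which 10 were listed in either table, so the division of reads between a member and its copies is uncertain. RPS3A, RPS4X and RPS23 overlap a listed gene on the other strand, and the strand setting of the counting is not given in the sources used here.

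RPS28 lay apart from its subunit. RPS28 is part of the head, next to the channel where the messenger RNA leaves. For each library, log2(RPS28 + 1) was set against the median of log2(value + 1) over the other 27 members. This difference was -2.64, -2.66 and -2.62 in siNT replicates 7, 8 and 9 of MCF10A. It was -4.42, -5.11 and -5.39 with miR-28 and -4.25, -4.81 and -4.92 with miR-708. Every library with a mimic was therefore below every siNT library, and the spread was wider with a mimic (SD 0.50 and 0.36) than with siNT (SD 0.019). For hTERT RPE-1 the difference was -1.61, -1.61 and -1.94 in siNT replicates 1, 2 and 3. It was -5.95, -4.89 and -5.74 with miR-28 and -5.15, -4.95 and -5.45 with miR-708, again without overlap. Since gene length enters the level of RPS28 but cancels between groups, only the change of this difference is read. The change was -2.34 with miR-28 and -2.02 with miR-708 in MCF10A (log2 units, no test). The hTERT RPE-1 changes were -3.81 and -3.47. Without replicate 1 of miR-28 in hTERT RPE-1 it was -3.59 for that mimic. By RT-qPCR, the paper saw some sensitivity of RPS28 to siNT itself in hTERT RPE-1. It also reported that the mimics lowered RPS28 further than siNT, in a dose-dependent way. The series holds no mock-transfected libraries, so the changes given here are relative to siNT only. As a share of the summed values of the 28 members, RPS28 made up 0.585% ± 0.018 with siNT in MCF10A (SD, n = 3), 0.115% ± 0.043 with miR-28 and 0.143% ± 0.027 with miR-708. The shares were, in hTERT RPE-1 and the same order, 0.941% ± 0.098, 0.0816% ± 0.037 and 0.104% ± 0.019.

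**Figure D1:**
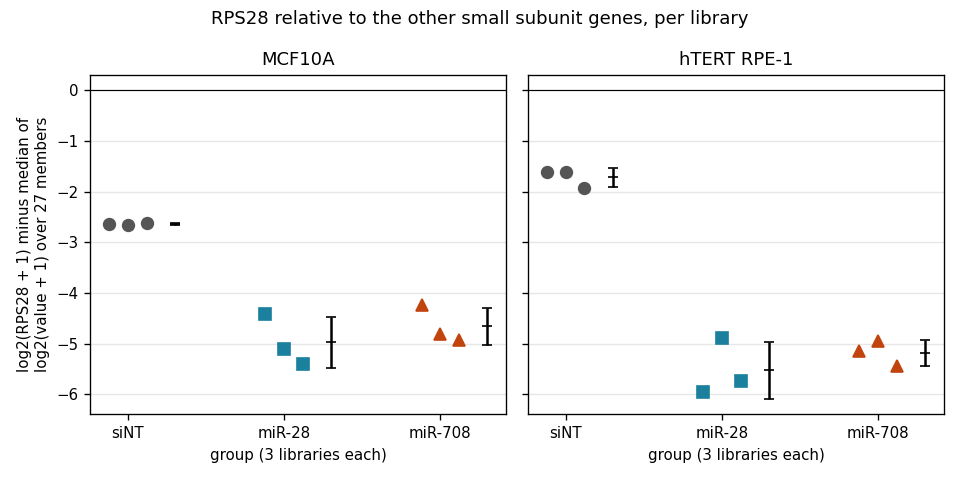
Difference between log2(RPS28 + 1) and the median of log2(value + 1) over the other 27 small subunit genes, 1 point per library, with the mean ± SD of each group of 3 in black. All libraries with a mimic lie below -4.2 and all siNT libraries above -2.7.

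Measured per kb of its reference transcript, RPS28 had a level of 2910 ± 187.1 with siNT in MCF10A (SD, n = 3), 12.9% of the median over members, and of 2421 ± 221.8 in hTERT RPE-1, 20.0% of that median. Its reference transcript is 1330 nt long, of which only 210 nt are coding. Per kb of coding sequence its level was 47.9% and 66.1% of the median over members, so its place among them turns on the length used.

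Where a pair of values is given for a gene, the first is with miR-28 and the second with miR-708. In MCF10A, 27 of the 28 members had a negative fold change with each mimic. Of them, 8 fell with miR-28 where 12.0% of all genes tested fell, and 21 fell with miR-708 where 17.3% of all genes tested fell (limma on log2(value + 1), Benjamini-Hochberg adjusted p below 0.05). No member rose with either mimic, while 10.7% and 15.5% of all genes tested did. At an unadjusted p below 0.05 (limma), 19 and 24 members were lower and none higher. At that threshold 2787 and 3335 of the 14726 genes tested were lower. The median log2 fold change of the members was -0.35 with miR-28 and -0.54 with miR-708, beside 0.0056 and -0.0047 over all genes tested. Every library with the mimic was below every siNT library for 15 members with miR-28 (22.1% of all genes tested) and 26 with miR-708 (23.9%). In these bulk libraries, fewer cells of a kind and less RNA per cell cannot be told apart. With the replicate number as a block, an alternative that sets libraries of the same number against each other, 15 members fell with miR-28 (15.5% of all genes tested) and 24 with miR-708 (20.4%). The block thereby added RPS4X, RPS7, RPS16, RPS23, RPS26, RPS29 and FAU to the members that fell with miR-28. Scaled to the same total, 14 members and 1619 of all genes tested fell with miR-708. Leaving out 1 library gave 14 members (siNT replicate 8, 13.4% of genes) to 23 (miR-28 replicate 7, 18.9%, or miR-708 replicate 7, 19.8%). The median with miR-28 was -0.22 without miR-28 replicate 7 and -0.236 with libraries scaled to the same total, where the median of all genes was 0.116. The count of members that fell with miR-28 was 5 without siNT replicate 8 (7.75% of genes) and 5 without miR-28 replicate 8 (7.38%). This count was 16 without miR-28 replicate 9 (8.28%). Without miR-28 replicate 7 it was 6 (11.2%), and 1 member (RPS19) was called higher.

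In hTERT RPE-1, 27 of 28 members fell with miR-28, with the exception of RPS19, where 23.5% of all genes tested fell, and all 28 fell with miR-708, where 31.2% of all genes tested fell (limma, Benjamini-Hochberg adjusted p below 0.05). No member rose, beside 23.3% and 30.9% of all genes tested. The median log2 fold change of the members was -0.82 and -1.14, and over all genes tested it was 0.0061 and 0.0021. The libraries did not overlap with siNT for 27 members with miR-28 (27.5% of all genes tested) and for 28 with miR-708 (34.9%). Without replicate 1 of miR-28, the library with the high share of ribosomal RNA, 27 members still fell with miR-28 (22.8% of genes). The median of the members was then -0.98. The comparisons of the mimics share the siNT libraries of their line, so they are not independent of each other. If the libraries are scaled to the same total in place of the authors' scaling, the median over all genes with miR-708 shifts to 0.321. That of the members is -0.818, so that relative to all genes the members stay low, and 26 members fell (18.3% of genes).

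**Figure D2:**
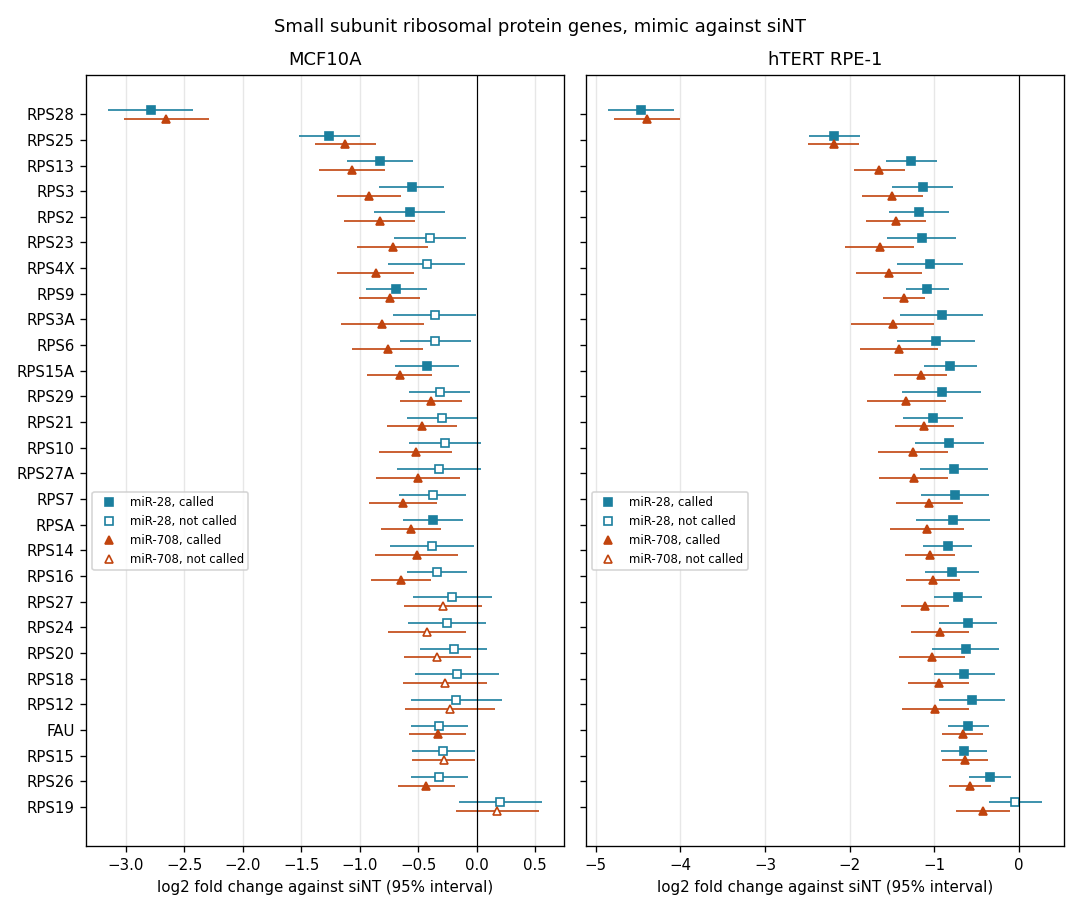
Log2 fold change of each small subunit gene against siNT with its 95% interval, in MCF10A (left) and hTERT RPE-1 (right), ordered by the mean over the 4 comparisons. Filled symbols passed the test, and the axes differ between the panels. RPS28 and RPS25 have the lowest fold changes and RPS19 the highest in both lines.

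The values per library show how separate RPS28 was. In MCF10A, RPS28 (chr19:8321496-8323340, plus strand, GRCh38.p14) had values of 3589, 3960 and 4062 with siNT, of 697.1, 499.9 and 503.4 with miR-28 and of 785.5, 554.0 and 531.7 with miR-708. The hTERT RPE-1 values were 3465, 3301 and 2892 with siNT, 132.0, 184.5 and 123.5 with miR-28 and 177.3, 159.8 and 122.5 with miR-708. The groups with a mimic were far below siNT in both lines, and their libraries overlapped each other.

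RPS25 came next. It is a head protein that viral internal ribosome entry sites need to recruit the subunit. In MCF10A, RPS25 (chr11:119015717-119018343, minus strand) had values of 23922, 26855 and 27827 with siNT, of 10979, 10908 and 10890 with miR-28 and of 14002, 11383 and 10853 with miR-708. In hTERT RPE-1 they were 9473, 8929 and 9525 with siNT, 2540, 1792 and 1898 with miR-28 and 2384, 1888 and 1890 with miR-708. No library with a mimic reached the siNT libraries. The log2 fold changes were -1.26 and -1.12 in MCF10A (standard error 0.12, adjusted p = 0.000157 and 8.39e-05, limma with Benjamini-Hochberg adjustment). They were -2.18 and -2.19 in hTERT RPE-1 (standard error 0.14, adjusted p = 1.62e-06 and 5.53e-07, limma). Relative to the median of the other members, RPS25 was lower by a log2 difference of -0.92 and -0.60 in MCF10A and then of -1.37 and -1.07 in hTERT RPE-1.

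RPS13, a body protein, followed. In MCF10A, RPS13 (chr11:17074388-17077667, minus strand) had values of 14636, 15326 and 16637 with siNT, of 8286, 9066 and 8859 with miR-28 and of 9161, 6670 and 6691 with miR-708. In hTERT RPE-1 they were 6920, 6376 and 6995 with siNT, 3467, 2420 and 2610 with miR-28 and 2472, 1903 and 2118 with miR-708. The groups with a mimic did not overlap siNT. The fold changes of RPS13 were -0.83 and -1.06 in MCF10A (standard error 0.13, adjusted p = 0.00162 and 0.000176, limma) and -1.27 and -1.65 in hTERT RPE-1 (standard error 0.14, adjusted p = 4.95e-05 and 3.82e-06, limma).

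RPS3, a head protein at the entry of the messenger RNA, came after RPS13. In MCF10A, RPS3 (chr11:75399518-75422302, plus strand) had values of 28849, 32749 and 31192 with siNT, of 17994, 21673 and 23815 with miR-28 and of 17238, 15611 and 16154 with miR-708. In hTERT RPE-1 they were 16121, 15348 and 15354 with siNT, 9286, 5490 and 6985 with miR-28 and 6345, 4975 and 5385 with miR-708. Neither mimic overlapped siNT, and in hTERT RPE-1 replicate 1 was the highest library of each mimic. RPS3 fell, with log2 fold changes of -0.56 and -0.92 in MCF10A (standard error 0.13, adjusted p = 0.0103 and 0.000381, limma) and of -1.14 and -1.49 in hTERT RPE-1 (standard error 0.165, adjusted p = 0.000328 and 2.46e-05, limma).

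At the other end of the order stood RPS19, RPS26 and RPS15. RPS19, a head protein whose gene is the one most often mutated in Diamond-Blackfan anaemia, had the highest fold changes. In MCF10A, RPS19 (chr19:41860255-41872925, plus strand) had values of 9186, 10355 and 10190 with siNT, of 8573, 12087 and 14260 with miR-28 and of 10730, 10419 and 12514 with miR-708. In hTERT RPE-1 they were 9575, 9189 and 8412 with siNT, 10196, 7036 and 9472 with miR-28 and 7803, 6138 and 6418 with miR-708. With miR-28 RPS19 overlapped siNT in both lines, with miR-708 all its libraries were just above siNT in MCF10A, and with miR-708 all were below siNT in hTERT RPE-1. Its log2 fold changes of 0.20 (95% interval -0.155 to 0.56) and 0.18 (-0.18 to 0.53) in MCF10A and of -0.04 (-0.36 to 0.27) with miR-28 in hTERT RPE-1 did not pass the test. With miR-708 in hTERT RPE-1 RPS19 fell by 0.42 on the log2 scale (standard error 0.14, adjusted p = 0.024, limma). That call was lost when libraries were scaled to the same total (-0.10, adjusted p = 0.524, limma) and without any 1 of siNT replicate 1, siNT replicate 2, miR-708 replicate 2 or miR-708 replicate 3 (lowest adjusted p = 0.0624, limma).

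RPS26, which lines the exit channel of the messenger RNA beside RPS28, had values in MCF10A (chr12:56041918-56044697, plus strand) of 6355, 7922 and 7287 with siNT, of 5363, 5374 and 6564 with miR-28 and of 5387, 5485 and 5077 with miR-708. In hTERT RPE-1 RPS26 had values of 3404, 3277 and 3031 with siNT, of 2824, 2228 and 2642 with miR-28 and of 2437, 1964 and 2126 with miR-708. Only miR-28 in MCF10A overlapped siNT, and RPS26 differed least between the lines. Its fold changes were -0.32 (adjusted p = 0.0626, limma) and -0.43 (adjusted p = 0.0133, limma) in MCF10A and then -0.34 (adjusted p = 0.027, limma) and -0.58 (adjusted p = 0.00104, limma) in hTERT RPE-1, so that it fell in all but the first. The call with miR-28 in hTERT RPE-1 was lost without siNT replicate 1, siNT replicate 2 or miR-28 replicate 2 of that line, and that with miR-708 in MCF10A without siNT replicate 8 or miR-708 replicate 9 (adjusted p up to 0.155 and 0.0704 over all alternatives, limma). With miR-708 in hTERT RPE-1 it was lost with libraries scaled to the same total, with or without ribosomal RNA and mitochondrial genes (-0.26 and -0.28, adjusted p = 0.0516 and 0.0584, limma), and with miR-28 in MCF10A the replicate block called RPS26 lower.

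RPS15, a head protein near the decoding site, had values in MCF10A (chr19:1438396-1440495, plus strand) of 5542, 6516 and 5926 with siNT, of 4207, 4770 and 5889 with miR-28 and of 4721, 4929 and 5112 with miR-708. In hTERT RPE-1 RPS15 had values of 4605, 4261 and 3774 with siNT, of 2850, 2323 and 2918 with miR-28 and of 3099, 2441 and 2591 with miR-708. It overlapped siNT only with miR-28 in MCF10A, through replicate 9. RPS15 fell in hTERT RPE-1, with log2 fold changes of -0.65 and -0.64 (adjusted p = 0.00168 and 0.00105, limma), and in MCF10A its fold changes of -0.29 and -0.28 did not pass the test (adjusted p = 0.112 and 0.0959, limma).

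**Figure D3:**
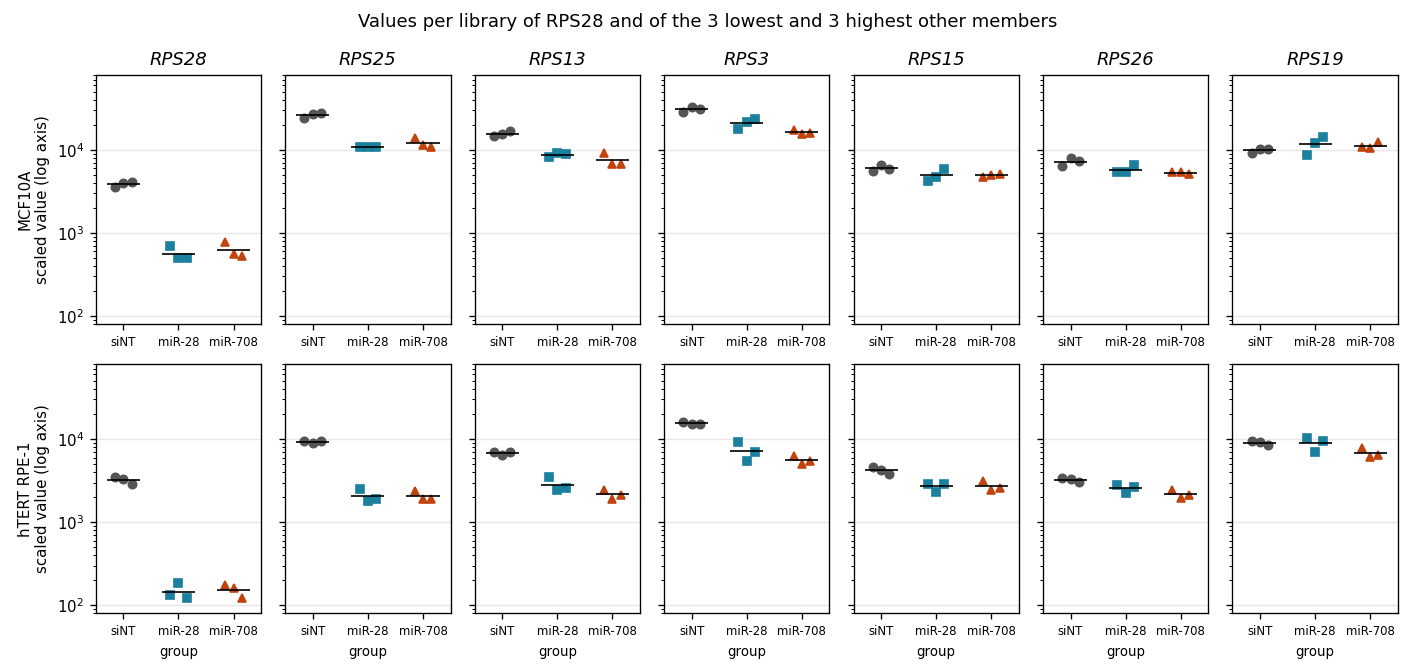
Values of each library, scaled by the authors and on a log axis, for RPS28, for the other 3 members with the lowest mean fold change (RPS25, RPS13, RPS3) and for the 3 with the highest (RPS15, RPS26, RPS19). Bars are means of 3 libraries, and the upper row is MCF10A, the lower hTERT RPE-1. RPS28 with a mimic is the farthest from its siNT libraries, and the siNT and miR-28 libraries of RPS19 overlap in both lines.

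By place in the subunit, 3 of the 12 head and beak genes fell in MCF10A with miR-28 (RPS3, RPS25 and RPS28) and 7 with miR-708, and their median log2 fold changes were -0.30 and -0.45. Of the 16 platform and body genes, 5 fell with miR-28 (RPSA, RPS2, RPS9, RPS13 and RPS15A) and 14 with miR-708, with medians of -0.38 and -0.64. The hTERT RPE-1 medians were -0.78 and -1.14 for the head and beak and -0.88 and -1.14 for the platform and body. The difference between both places was not tested. The head and beak genes varied more among themselves, with an SD of the fold changes of 1.16 against 0.25 with miR-28 in hTERT RPE-1. They hold RPS28 and RPS25, the lowest of the members in that comparison, and RPS19, the highest.

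Among the other head and beak genes, RPS10, which lies at the entry channel, had log2 fold changes of -0.27 and -0.52 in MCF10A and then of -0.82 and -1.25 in hTERT RPE-1, and passed the test in all but the first. RPS16, whose tail reaches the transfer RNA, had -0.34 and -0.65 in MCF10A and then -0.79 and -1.01 in hTERT RPE-1, and RPS29, a zinc-binding protein, had -0.32 and -0.39 and then -0.91 and -1.33. Both passed the test in all but MCF10A with miR-28, where the replicate block called them too. RPS27A, made as a fusion with ubiquitin, had -0.32 and -0.50 in MCF10A and then -0.77 and -1.24 in hTERT RPE-1, with the same pattern of calls. With miR-708 in MCF10A, the calls of RPS27A, RPS29 and RPS10 were lost without siNT replicate 8, siNT replicate 9 or miR-708 replicate 8, and those of RPS27A and RPS29 also without miR-708 replicate 9 (adjusted p up to 0.117, 0.135 and 0.0594 over all alternatives, limma). The beak protein RPS12 had -0.17 and -0.23 in MCF10A, RPS18 had -0.17 and -0.27, and RPS20 had -0.20 and -0.34, none past the test. In hTERT RPE-1 they fell, RPS12 with -0.56 and -0.99, RPS18 with -0.65 and -0.95 and RPS20 with -0.63 and -1.03 on the log2 scale. The call of RPS12 with miR-28 in hTERT RPE-1 was lost under 5 of the alternatives (adjusted p up to 0.0824, limma), among them leaving out siNT replicate 1 or 3 or miR-28 replicate 2 or 3.

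In the platform and body, RPS2 and RPS9 fell in all comparisons with siNT. RPS2, which lies where the messenger RNA enters, fell, with log2 fold changes of -0.57 and -0.83 in MCF10A and then of -1.18 and -1.45 in hTERT RPE-1. RPS9, which shapes the body near the entry channel, fell, with log2 fold changes of -0.69 and -0.74 in MCF10A and then of -1.08 and -1.36 in hTERT RPE-1. RPSA, first described as a laminin receptor, fell, with log2 fold changes of -0.38 and -0.56 in MCF10A and then of -0.77 and -1.09 in hTERT RPE-1. RPS15A, a body protein, had log2 fold changes of -0.43 and -0.66 and then of -0.81 and -1.16, all past the test. With miR-28 in MCF10A the calls of RPSA and RPS15A were lost under 10 and 8 of the alternatives, the 3 other scalings among them (adjusted p up to 0.122 and 0.109, limma). Both were lost without siNT replicate 8 or 9 or miR-28 replicate 7 or 8, and RPSA also without siNT replicate 7 or miR-708 replicate 8 or 9. The call of RPS2 was lost without siNT replicate 8 or miR-28 replicate 8 (adjusted p up to 0.0638, limma). These RPS2, RPS9, RPSA and RPS15A results, with those of RPS3, RPS13, RPS25 and RPS28, make up the 8 members that fell with both mimics in both lines.

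Another group of body proteins passed the test in MCF10A with miR-708 and not with miR-28, although the replicate block also called RPS4X, RPS23, RPS7 and FAU with miR-28. RPS4X, encoded on the X chromosome, had log2 fold changes of -0.43 with miR-28 and -0.86 with miR-708 in MCF10A. RPS6, the classic substrate of S6 kinase, had -0.35 and -0.76, and RPS3A, on the platform, had -0.36 and -0.81. RPS23, which touches the decoding centre, had -0.40 and -0.72, and RPS7, which can also bind MDM2, had -0.38 and -0.63. All of them fell in hTERT RPE-1 with both mimics, RPS4X with -1.05 and -1.54, RPS6 with -0.98 and -1.41, RPS3A with -0.91 and -1.49, RPS23 with -1.15 and -1.65 and RPS7 with -0.76 and -1.06 on the log2 scale. RPS14, the gene of the 5q- syndrome of the bone marrow, had -0.38 and -0.51 in MCF10A and then -0.84 and -1.05 in hTERT RPE-1, RPS21 had -0.29 and -0.47 and then -1.02 and -1.12, and FAU, which encodes RPS30 fused to a ubiquitin-like protein, had -0.32 and -0.33 and then -0.60 and -0.66. RPS14, RPS21 and FAU likewise fell in all but MCF10A with miR-28, and in MCF10A with miR-708 their calls were lost under 6, 6 and 10 of the alternatives (adjusted p up to 0.106, 0.0842 and 0.19, limma). Among these, all were lost without siNT replicate 8 or 9 or miR-708 replicate 8, RPS14 and FAU also without miR-708 replicate 9, and FAU without siNT replicate 7 or miR-28 replicate 8. RPS24, another gene of Diamond-Blackfan anaemia, had -0.26 and -0.42 in MCF10A, where it did not pass the test, and RPS27, a zinc-binding protein of the platform, had -0.21 and -0.29, also not past it. Both fell in hTERT RPE-1, RPS24 with -0.60 and -0.93 and RPS27 with -0.72 and -1.11. Standard errors of the members' fold changes were 0.11 to 0.18 in MCF10A and 0.11 to 0.22 in hTERT RPE-1.

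Set directly against each other, the mimics gave lower values with miR-708 for 25 members in MCF10A and 26 in hTERT RPE-1, with median log2 differences of -0.17 and -0.34. These medians were -0.289 without miR-28 replicate 7 and -0.060 without miR-28 replicate 9 of MCF10A. In hTERT RPE-1 they were -0.169 without miR-28 replicate 1 and -0.489 without miR-28 replicate 2, and -0.103 with libraries scaled to the same total, where the median of all genes was 0.230. No member passed the test in either line (limma, Benjamini-Hochberg adjustment), where 0.265% of all genes tested in MCF10A and 11.4% in hTERT RPE-1 were lower with miR-708, and the members with an unadjusted p below 0.05 were 6 in MCF10A and 12 in hTERT RPE-1, all lower. The lowest difference in both lines was that of RPS3A, at -0.45 (95% interval -0.80 to -0.09) in MCF10A and -0.58 (-1.07 to -0.09) in hTERT RPE-1. RPS28 and RPS15 were not lower with miR-708 in either line, and RPS25 was not in MCF10A. RPS15 differed by 0.0031 (95% interval -0.26 to 0.27) in MCF10A and 0.0070 (-0.26 to 0.28) in hTERT RPE-1. RPS28 differed by 0.13 (95% interval -0.23 to 0.50) in MCF10A and 0.07 (-0.32 to 0.46) in hTERT RPE-1, and RPS25 by 0.14 (-0.12 to 0.39) and -0.01 (-0.31 to 0.29). In hTERT RPE-1, a fit with the replicate block called 11 members lower with miR-708, RPS3A, RPS4X, RPS23 and RPS19 among them, and 12.6% of all genes tested. In that line, 22 members (and 14.6% of genes) were called lower without miR-28 replicate 2 and 1 member, RPS27 (and 7.54% of genes), without miR-708 replicate 1.

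For each mimic, all 28 members had the lower fold change in hTERT RPE-1. The difference between the lines passed the test for 6 members with miR-28, where 11.3% of the 13339 genes tested in both lines were lower, and for 20 with miR-708, where 19.6% were (difference of the limma fold changes, Benjamini-Hochberg adjusted p below 0.05). No member differed in the other direction, beside 12.1% and 20.2% of the genes tested, and the median difference of the members was -0.46 and -0.63. RPS28 and RPS25 differed most. For RPS25 the difference was -0.92 (95% interval -1.30 to -0.55, adjusted p = 0.00115, limma) with miR-28 and -1.06 (-1.44 to -0.69, adjusted p = 9.52e-05, limma) with miR-708. RPS23 differed by -0.75 and -0.93, RPS21 by -0.72 and -0.65, RPS2 by -0.61 and -0.62 and RPS3 by -0.58 and -0.57, each past the test with both mimics. With miR-708 alone, RPS29 (-0.94), RPS27 (-0.82), RPS12 (-0.76), RPS27A (-0.74) and RPS10 (-0.73) led the others that passed. RPS26 differed by -0.02 (95% interval -0.35 to 0.30) and -0.15 (-0.47 to 0.18), the smallest differences of any member. In each of the 4 comparisons with siNT, RPS28 and RPS25 had the lowest fold changes of the members and RPS19 the highest.

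The count of 6 for miR-28 turned on single libraries. It was 21 without miR-28 replicate 1 of hTERT RPE-1, the library with the high share of ribosomal RNA (11.6% of genes lower in that fit), 18 without miR-28 replicate 7 of MCF10A (10.8%) and 15 with the replicate block (14.0%). It was 3 without siNT replicate 7 of MCF10A (8.70% of genes) or without miR-28 replicate 2 (9.72%) or miR-28 replicate 3 (10.5%) of hTERT RPE-1. It was 2 without miR-28 replicate 9 of MCF10A (8.86%) or without siNT replicate 1 of hTERT RPE-1 (8.93%). The count of 20 for miR-708 was 6 when the libraries were scaled to the same total, with (12.8% of genes) or without (13.1%) ribosomal RNA and mitochondrial genes. It was also 6 without miR-708 replicate 2 of hTERT RPE-1 (18.3%). It was 10 without siNT replicate 1 and 12 without miR-708 replicate 3 of hTERT RPE-1 and 11 without siNT replicate 7 of MCF10A. RPS28 and RPS25 passed the test for both mimics under all of these settings.

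**Figure D4:**
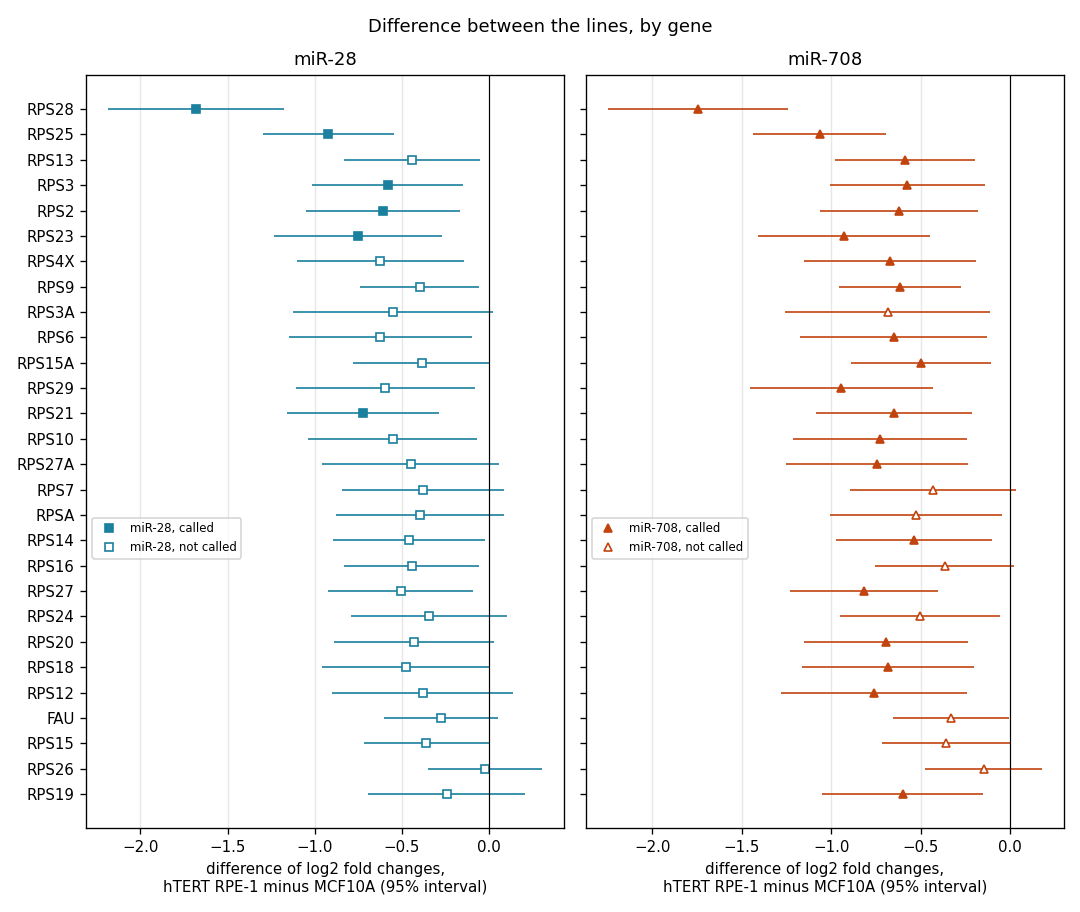
Log2 fold change in hTERT RPE-1 minus that in MCF10A for each small subunit gene, with its 95% interval, for miR-28 (left) and miR-708 (right). Filled symbols passed the test, 6 on the left and 20 on the right, and every point lies below 0.

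Summed over all 28 members, the small subunit made up 2.34% ± 0.23 of the values of a library with siNT in MCF10A (SD, n = 3), 1.95% ± 0.29 with miR-28 and 1.70% ± 0.040 with miR-708. For hTERT RPE-1 the sums were 0.964% ± 0.074, 0.570% ± 0.12 and 0.517% ± 0.070. The libraries with a mimic were below all siNT libraries in each case but miR-28 in MCF10A, where replicate 9 (2.20%) was above siNT replicate 7 (2.07%). As a percentage of the summed values of the 48 large subunit genes, the members' sum was 50.2–51.2% with siNT in MCF10A and 51.9–54.3% over the libraries with a mimic, without overlap. In hTERT RPE-1 it was 50.8–52.5% with siNT, 50.8–52.6% with miR-28 and 51.2–53.3% with miR-708, so the groups overlapped. Of these 48 genes, 21 and 39 fell in MCF10A and then 46 and 48 in hTERT RPE-1 with miR-28 and miR-708, and none rose (limma, adjusted p below 0.05). Their median log2 fold changes were -0.36 and -0.55 in MCF10A and then -0.74 and -1.16 in hTERT RPE-1, close to those of the small subunit. The lowest by the mean over the comparisons were RPL23A (-1.11 and -1.42 in MCF10A, -1.70 and -2.30 in hTERT RPE-1) and RPL4 (-0.69 and -1.12, then -1.21 and -1.72). The highest by that mean was RPL36 (-0.19 and -0.03, then -0.26 and -0.34).

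A pair of small subunit proteins outside the list went separate ways. RACK1, a scaffold protein on the head of the subunit, fell with both mimics in both lines, with log2 fold changes of -0.52 and -0.83 in MCF10A and then of -0.82 and -1.09 in hTERT RPE-1. RPS27L, a copy of RPS27 that is induced by p53, rose in MCF10A, by 0.91 and 0.997 on the log2 scale (adjusted p = 0.00103 and 0.000251, limma). The fold changes of RPS27L in hTERT RPE-1 were 0.22 and -0.04 and did not pass the test (adjusted p = 0.144 and 0.798, limma).

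Factors that mature the small subunit were also counted. Of 54 listed factors, 14 fell and none rose in MCF10A with miR-28 (12.0% and 10.7% of all genes tested), and 22 fell and 2 rose with miR-708 (17.3% and 15.5%), with medians of -0.19 and -0.22. In hTERT RPE-1, 5 fell and 18 rose with miR-28 (23.5% and 23.3% of all genes tested), and 5 fell and 26 rose with miR-708 (31.2% and 30.9%), with medians of 0.19 and 0.29 (limma, adjusted p below 0.05). Tested between the lines, 21 factors with miR-28 and 34 with miR-708 had a higher fold change in hTERT RPE-1 (12.1% and 20.2% of genes) and none a lower one. NOB1, the nuclease that makes the 3′ end of 18S ribosomal RNA, was the lowest factor by the mean over the 4 comparisons, with -1.05 and -0.99 in MCF10A, both past the test, and -0.10 and 0.07 in hTERT RPE-1, neither past it. Fibrillarin (FBL), the methyltransferase of box C/D particles, was next by this mean, at -0.57 and -0.75 and then -0.48 and -0.16. The highest by the same mean were the helicase DDX52, at 0.25 and 0.34 and then 0.88 and 1.08, and RCL1, at 0.16 and 0.24 and then 0.68 and 0.55.

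**Figure D5:**
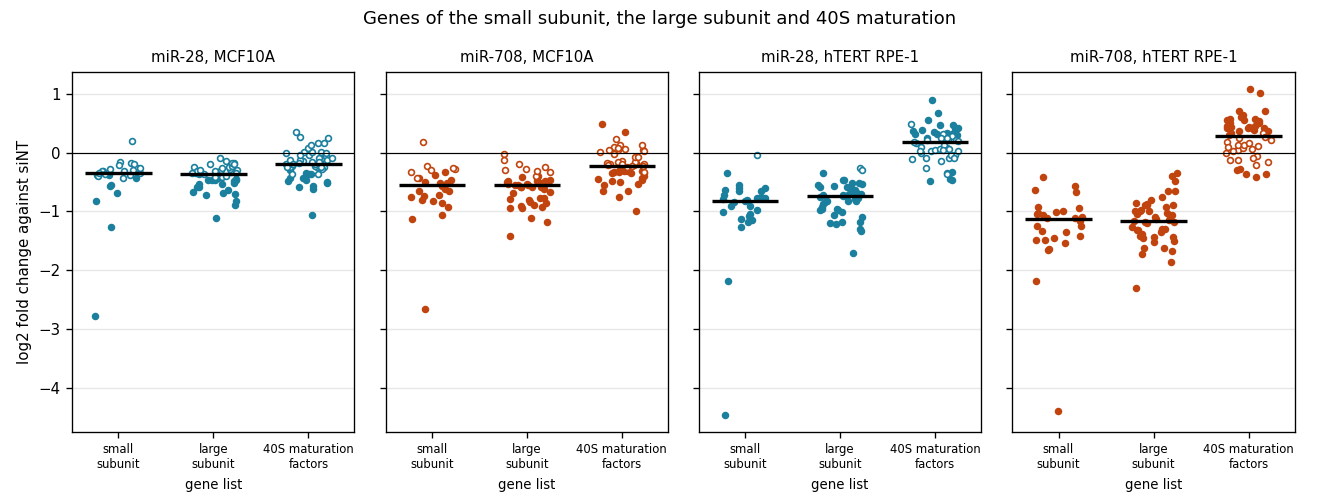
Log2 fold change against siNT of the 28 small subunit genes, the 48 large subunit genes and the 54 factors of small subunit maturation, 1 point per gene, in the 4 comparisons with siNT. Black bars are medians and filled points passed the test. The medians of both subunits are alike in each panel, and RPS28 is the isolated point below.

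Other properties of the members were read from the reference. Their annotated starts, in the RefSeq promoter table (GRCh38.p14, 28 promoters of 25 members, with no entry for RPS2, RPS15A and RPS20), were a C in 21 promoters, and in 14.7% of all promoters of the table. A C followed directly by pyrimidines, with a run of at least 5 in all, stood at the start of 67.9% of the members' promoters and of 4.07% of all promoters. RPS28, RPS26, RPS29, RPS4X, RPS15 and RPS7 had no start of this form, and RPS25, RPS13, RPS3 and RPS19 had one. This form requires the run to begin exactly at the annotated start. A window of 10 bases before the start and 15 from it on was also read. It held a run of at least 8 pyrimidines in 78.6% of the members' promoters and in 11.05% of all. The longest run there was 9 in RPS28 and RPS26, 11 in RPS7, 7 in RPS15, 5 in RPS4X and 2 in RPS29. Across the members, longer transcripts tended to have lower fold changes, with a Spearman correlation of -0.40 with miR-28 and -0.41 with miR-708 in MCF10A and then of -0.20 and -0.21 in hTERT RPE-1 (28 genes measured in the same libraries). Without RPS28 and RPS25 these were -0.51, -0.51, -0.27 and -0.28 over 26 genes, and over the same 26 genes the correlations with the siNT level were -0.20, -0.39, -0.21 and -0.33. With coding length they were -0.526, -0.615, -0.421 and -0.440 over the 26 genes, stronger than with transcript length. Over all 28 they were -0.284, -0.355, -0.187 and -0.201, weaker than with transcript length. Over the 26 genes, 3′ UTR length gave -0.291, -0.276, -0.206 and -0.192. The percentage of G and C gave 0.169, 0.353, 0.222 and 0.443.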

How the data were processed

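Polyadenylated RNA of 18 libraries was sequenced. Per the study's methods and the labels, the authors trimmed adapters, used HISAT2 2.1.0 to align reads to hg38, estimated RefSeq gene counts in Partek Flow by expectation maximisation and ran DESeq2. The signal in the deposited tables, 1 for each line, is such an estimate after division by the size factor of its library. Also deposited were tables of the authors' own comparisons, with ratios, fold changes and p-values, which were not used. In each library, 77.8% to 82.5% of the values between 0.5 and 15 were whole multiples, within 0.0005, of 1 step, taken as the value of 1 read. Depth is the summed values divided by this step. The other low values were fractions of a read, so whole reads were not recovered and no count test was run.

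Values were tested with limma 3.58.1 (R 4.3.3) on log2(value + 1), for genes that reached 10 in 3 or more of a line's 9 libraries, with 3 group means, a trend in the spread and Benjamini-Hochberg adjustment over all genes tested. Fold changes are on this scale, which understates the change of low genes. The tables were scaled separately, so lines were compared by the difference of their fold changes (Welch–Satterthwaite degrees of freedom). The fits were tested on simulated data. The reads carry no molecular identifiers, so the value of 3 reads covers counting error only.

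All 28 members are described (1 large subunit gene that the naming rule picks is not reported here), with values per library for RPS28 and the 3 other members lowest and 3 highest by the mean fold change over the 4 comparisons with siNT. The members, the lists of large subunit proteins and of maturation factors and the tests were chosen with earlier results of these data known. The list of factors held 57 names, of which 54 were listed, since UTP4 (CIRH1A), FCF1 (UTP24) and PDCD11 (RRP5) stood under 2 names each. Correlations of deviations between libraries of the same number were 0.263, 0.176 and 0.111 (miR-28 and siNT) and 0.302, 0.115 and 0.155 (miR-708 and siNT) in MCF10A and 0.278, 0.198 and 0.134 (both mimics) in hTERT RPE-1, all above 0.1. In the other comparisons at least 1 value was below 0.1. Libraries of different numbers were not compared in this way, so these values cannot settle whether the numbers pair the libraries. The main fits do not use the numbers. Alternatives were other pseudocounts, scalings, filters and fits, the replicate block and leaving out each library. Transcripts and sites came from GENCODE 44. Scripts ran in Python 3.11.15 with scipy 1.17.1, numpy 2.4.6, pandas 2.3.3 and matplotlib 3.10.9.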

Additional observations from a re-analysis of the deposited data

Results flagged for a closer look

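The result picked out for a closer look is the difference between the lines in the members' response to the same mimic, tested for each gene as the log2 fold change in hTERT RPE-1 minus that in MCF10A (limma fold changes, Benjamini-Hochberg adjustment over 13339 genes). With miR-28 it passed the test for RPS28 (-1.68), RPS25 (-0.92), RPS23 (-0.75), RPS21 (-0.72), RPS2 (-0.61) and RPS3 (-0.58). With miR-708 it passed for RPS28 (-1.74), RPS25 (-1.06), RPS29 (-0.94), RPS23 (-0.93), RPS27 (-0.82), RPS12 (-0.76), RPS27A (-0.74), RPS10 (-0.73), RPS20 (-0.69), RPS18 (-0.68), RPS4X (-0.67), RPS6 (-0.65) and RPS21 (-0.65). It also passed with miR-708 for RPS2 (-0.62), RPS9 (-0.61), RPS19 (-0.60), RPS13 (-0.59), RPS3 (-0.57), RPS14 (-0.54) and RPS15A (-0.50). All of these were lower in hTERT RPE-1. Of the 27 alternatives, the call with miR-28 was lost under 16 for RPS3, 11 for RPS2, 5 for RPS23 and 2 for RPS21. The call with miR-708 was lost under 15 for RPS6 and RPS14, 13 for RPS15A, 10 for RPS19 and 9 for RPS3. It was lost under 3 to 6 for RPS2, RPS4X, RPS10, RPS12, RPS13, RPS18, RPS20, RPS21 and RPS27A. The calls of RPS28 and RPS25 with both mimics, and of RPS9, RPS23, RPS27 and RPS29 with miR-708, were kept under all. The line cannot be told apart from the sequencing of its libraries, since each line was scaled as a table of its own.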

How the results depend on the processing

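No member changed direction with its call under any alternative. With the authors' scaling replaced by library totals, the members' median with miR-708 in hTERT RPE-1 was -0.818 (-0.840 without ribosomal RNA and mitochondrial genes), while the median of all genes tested rose to 0.321 and 0.300. That between the mimics in this line was -0.103, with 0.230 over all genes and 4654 genes called. The 20 members that differed between the lines with miR-708 became 6 under either scaling. With the replicate block, 15 members fell with miR-28 in MCF10A, 11 were lower with miR-708 than with miR-28 in hTERT RPE-1, and 15 differed between the lines with miR-28. Other counts of members moved less with the block. Between the mimics in MCF10A, the block called 643 genes and a fit with no trend 150, in place of 228, and no member. The change of RPS28 against the mean of the other members was -3.218 with miR-708 in hTERT RPE-1. Its level per kb was 9.81% and 14.1% of the members' median with the median length of coding transcripts, and 47.9% and 66.1% with the coding length, an alternative chosen after seeing the data.

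Leaving out 1 library at a time, 5 to 16 members fell and 0 to 1 rose with miR-28 in MCF10A, with 1949 to 3950 genes called, and 3174 to 5483 genes were called and 14 to 23 members fell with miR-708. Between the mimics, 112 to 368 genes were called in MCF10A, and in hTERT RPE-1 1512 to 4084 genes and 0 to 22 members. Between the lines, 2 to 21 members were lower with miR-28 and 6 to 24 with miR-708. The cause of these changes was not tested. Among single members, 218 values lost their call, 129 gained one and 4189 kept their side of the threshold. With 3 libraries a group, an exact permutation test of 1 gene could not go below 0.1, so calls rest on a spread shared across genes.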
